A study of Mus musculus with 9 samples.

Results

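The Pax transcription factors were followed in the lambdoidal junction of the mouse embryo, the place where the facial prominences (medial and lateral nasal, maxillary) join to form the upper lip and primary palate. The family was taken as the rows of the deposited gene table whose symbol is Pax1 to Pax9, which gave 9 genes of 54532. Tissue of the lambdoidal junction was taken from C57BL/6J embryos for RNA-seq at 3 embryonic days, 10.5 (E10.5), then 11.5 (E11.5), then 12.5 (E12.5), and no treatment or mutation is given for any group. There were 3 libraries per stage, each made from a pool of embryos, so the spread between libraries is that between pools. The tissue was dissected whole, so fewer cells of a type and less RNA per cell cannot be told apart.

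Pax proteins bind DNA through the paired domain, which the paired box encodes. Vertebrate members fall into subgroups of close relatives: Pax1 and Pax9, known from sclerotome, pharyngeal pouches, palate and teeth; Pax2, Pax5 and Pax8, known from the midbrain-hindbrain boundary, kidney, ear, thyroid and B cells; Pax3 and Pax7, known from the neural plate border, neural crest and muscle progenitors; and Pax4 and Pax6, known from pancreatic islets and from eye, forebrain and nasal placode. In mice, loss of Pax9 causes cleft palate and missing teeth, and loss of Pax6 leaves the embryo without eyes and nose.

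The stretch of the paired box that is most alike over the family is shown because it defines the members and bears on whether reads of one could be counted for another. It covers 30 codons, or 90 bases, of the coding sequence of 1 GENCODE vM21 transcript per gene (GRCm38), written in the direction of transcription. Capitals mark the 36 bases that are identical in all 9 genes.
Pax1: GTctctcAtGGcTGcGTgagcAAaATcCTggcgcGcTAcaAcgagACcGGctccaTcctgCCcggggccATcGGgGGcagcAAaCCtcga
Pax2: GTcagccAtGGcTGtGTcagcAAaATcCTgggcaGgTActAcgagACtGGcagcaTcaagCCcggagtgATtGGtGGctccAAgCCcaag
Pax3: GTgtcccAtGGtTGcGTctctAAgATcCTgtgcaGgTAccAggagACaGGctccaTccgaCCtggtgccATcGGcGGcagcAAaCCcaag
Pax4: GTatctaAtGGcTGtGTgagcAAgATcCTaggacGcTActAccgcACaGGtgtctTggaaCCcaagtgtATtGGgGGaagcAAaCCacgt
Pax5: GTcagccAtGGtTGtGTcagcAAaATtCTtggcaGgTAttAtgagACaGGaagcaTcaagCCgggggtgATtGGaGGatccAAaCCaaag
Pax6: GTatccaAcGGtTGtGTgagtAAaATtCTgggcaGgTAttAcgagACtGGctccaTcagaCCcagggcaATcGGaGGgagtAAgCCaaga
Pax7: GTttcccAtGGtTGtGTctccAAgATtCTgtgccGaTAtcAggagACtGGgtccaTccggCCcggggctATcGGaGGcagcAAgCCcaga
Pax8: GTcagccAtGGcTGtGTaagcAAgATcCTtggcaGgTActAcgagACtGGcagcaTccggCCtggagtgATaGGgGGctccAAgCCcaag
Pax9: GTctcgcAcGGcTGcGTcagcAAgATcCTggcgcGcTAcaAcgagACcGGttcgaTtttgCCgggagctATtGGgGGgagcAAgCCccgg
Within this stretch Pax1 and Pax9 encode the same residue at 30 of 30 codons while differing at the DNA level, with 74 of 90 bases identical. Pax2 and Pax5 also share 30 residues, with 77 identical bases, and Pax3 and Pax7 share 29 residues, with 73 identical bases. Pax2 and Pax8 share 29 residues and 82 bases, the most bases of any pair. Pax4 and Pax6 are less alike, with 24 residues and 57 bases shared. Over whole transcripts, the longest exact stretch shared by any of the 36 pairs of members was 37 bases, a run of GA repeats in Pax3 and Pax6. The longest was 27 bases for Pax2 and Pax8, and 26 bases for Pax1 and Pax9 as well as for Pax3 and Pax7.

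The members lie at separate loci in GRCm38. Pax1 is at chr2:147361925-147393295 on the plus strand and Pax9 at chr12:56691767-56712822 on the plus strand. Pax3 is at chr1:78101267-78197134 and Pax7 at chr4:139737062-139833528, both on the minus strand. Pax2 (chr19:44756045-44837871, plus strand), Pax5 (chr4:44524757-44710487, minus strand) and Pax8 (chr2:24420560-24475599, minus strand) make up the third subgroup. Pax6 is at chr2:105668900-105697364 on the plus strand and Pax4 at chr6:28442334-28449353 on the minus strand. Exons of Pax1, Pax5, Pax8 and Pax9 overlap exons of genes on the opposite strand over 1.41 to 7.18% of their length, and the strand setting of the counting was not given in the sources used here. AI646519, which overlaps Pax1, had at most 34 counts in any library. Slc25a21, which overlaps Pax9, had 29 to 72, with 60 in E10.5 replicate 3, where Pax9 had 184. Gm12462 and 5730488B01Rik, which overlap Pax5, had 3 counts each in E10.5 replicate 2, where Pax5 had 15.

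Total counts were 16581009 to 20836804 per library. The library E10.5 replicate 3 stood apart: the SD of the log2 difference over genes was 0.711 against replicate 1 and 0.703 against replicate 2, compared with 0.393 between replicates 1 and 2, and its difference from replicate 2 followed GC content over genes (Spearman rho = 0.537). It was the lowest E10.5 library for Pax1, Pax3, Pax7 and Pax9 and the highest for Pax6. Its marker levels also differed: in E10.5 replicates 1, 2 and 3 the mesenchyme list summed to 2303, 2264 and 1244 CPM, the epithelium list to 468, 526 and 860 CPM and the endothelium list to 308, 301 and 114 CPM. Their part in the Pax values of E10.5 was not tested. Markers of the dissected tissue were present at every stage, with Prrx1, a mesenchymal transcription factor, at 343 ± 40.1, 508 ± 28.04 and 525 ± 23.5 CPM and Epcam, an epithelial adhesion molecule, at 110 ± 35.6, 90.3 ± 4.49 and 108 ± 12.4 CPM (SD, n = 3), in order of stage. CPM here are read counts scaled to a common library size after TMM normalization.

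Across the 3 stages the family changed its composition. Pax1 and Pax9 rose, as did Pax3, while Pax2, Pax5 and Pax6 fell and Pax7 was highest at E11.5. A gene was called a DEG where edgeR's quasi-likelihood test gave an adjusted p (Benjamini-Hochberg over all genes tested) no higher than 0.05 and the log2 fold change was 1 or more in either direction. For E11.5 vs. E10.5, 7 of the 9 members passed the filter on low counts and 6 were DEGs, where 6.07% of all 15708 genes tested were DEGs. Of these, 3 were upregulated (3.46% of all genes) and 3 downregulated (2.61%). For E12.5 vs. E11.5, 5 members were tested and Pax1 was the 1 DEG, upregulated, beside 5.1% of 15808 genes (4.14% up, 0.962% down). For E12.5 vs. E10.5, 7 members were tested and 6 were DEGs, beside 15% of 15899 genes, with 3 upregulated (9.97%) and 3 downregulated (5.08%). In a test of the 3 stages together on all 9 libraries, all 7 tested members passed an adjusted p of 0.05, beside 28.3% of 16375 genes. Pax2 and Pax5 passed the filter on low counts through their E10.5 libraries and Pax1 through those of the later stages. Their place in the counts of members tested and called, and the direction of those calls, are thus in part set by the filter.

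**Figure D1:**
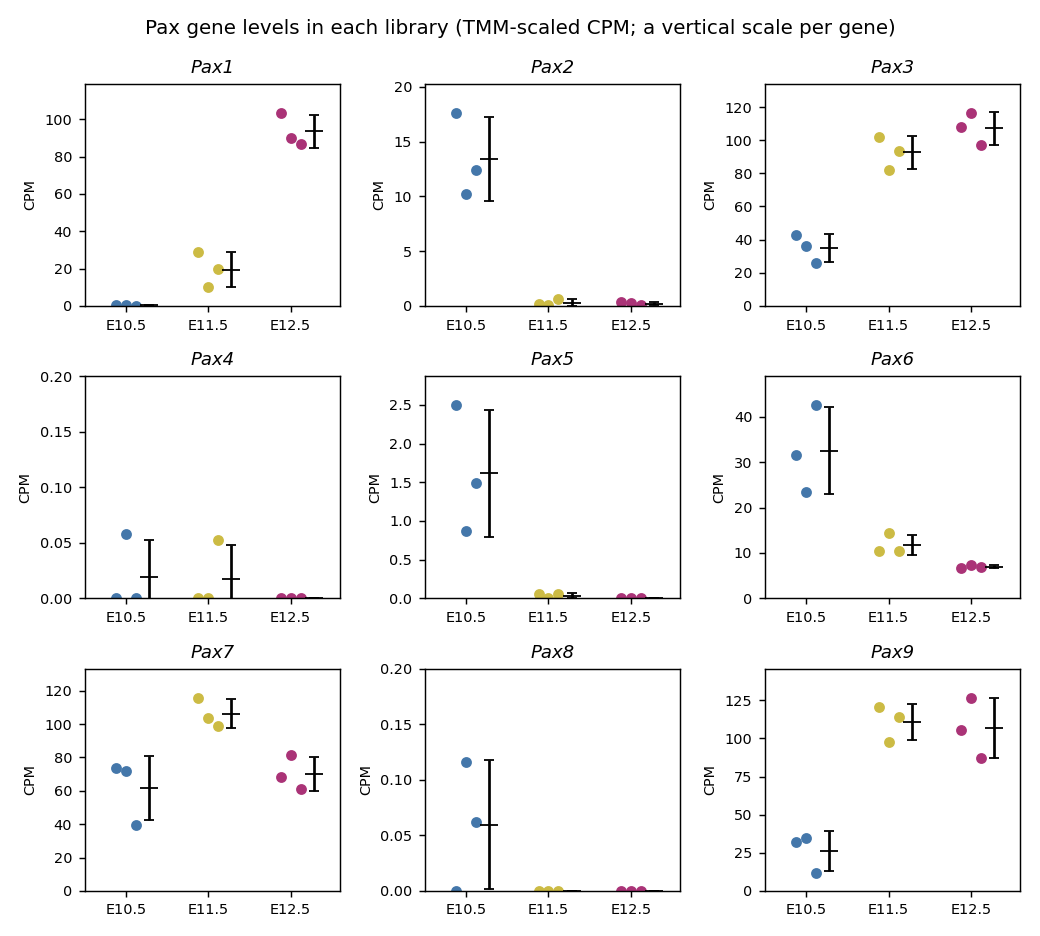
TMM-scaled CPM (vertical axis, from 0, with its own scale in each panel) of each Pax gene in the 9 libraries by stage (horizontal axis). Points are libraries in replicate order, and the line with bars is the mean ± SD of 3 libraries. Pax1 went from 0.337 to 93.5 CPM on average, Pax2 and Pax5 were near 0 after E10.5, and Pax4 and Pax8 had 0 to 2 counts in every library.

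Pax1, a regulator of sclerotome and pharyngeal pouch development, changed most among the members that rose. Its raw counts were 9, 5 and 3 in the E10.5 libraries, 533, 205 and 374 in the E11.5 libraries and 1837, 1671 and 1456 in those of E12.5. Every library of a later stage was above every library of the earlier one. Pax1 thus went from 0.337 ± 0.179 to 19.4 ± 9.41 and then 93.5 ± 8.84 CPM (SD, n = 3). The log2 fold change was 5.82 (SE 0.534, adjusted p = 0.0013) for E11.5 vs. E10.5 and 2.27 (SE 0.292, adjusted p = 7.85e-04) for E12.5 vs. E11.5. Over both intervals it was 8.09 (SE 0.309, adjusted p = 1.87e-07).

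Pax9, required for palate and tooth development, rose between E10.5 and E11.5. Its CPM were 32.2, 34.8 and 11.4 in the E10.5 libraries, 120, 97.8 and 114 in the E11.5 libraries and 106, 127 and 87.3 in those of E12.5. The E11.5 and E12.5 libraries overlapped, and all of them were above the E10.5 libraries. For E11.5 vs. E10.5 the log2 fold change was 2.09 (SE 0.357, adjusted p = 0.0101). Without E10.5 replicate 3, the lowest library, it was 1.73. Without E11.5 replicate 1 it was 2.03 and no longer passed the threshold (adjusted p = 0.0626). The E12.5 vs. E11.5 difference of -0.06 (SE 0.152, adjusted p = 0.816) did not pass.

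The ratio of Pax1 to Pax9 per length is given as a description. Levels of different genes were compared as CPM per kb of the gene length in the table. The ratio was 0.0187, 0.00938 and 0.0184 in the E10.5 libraries, 0.268, 0.113 and 0.194 in the E11.5 libraries and 1.10, 0.80 and 1.12 in those of E12.5. The stages did not overlap, and the ratio reached about parity at E12.5.

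**Figure D2:**
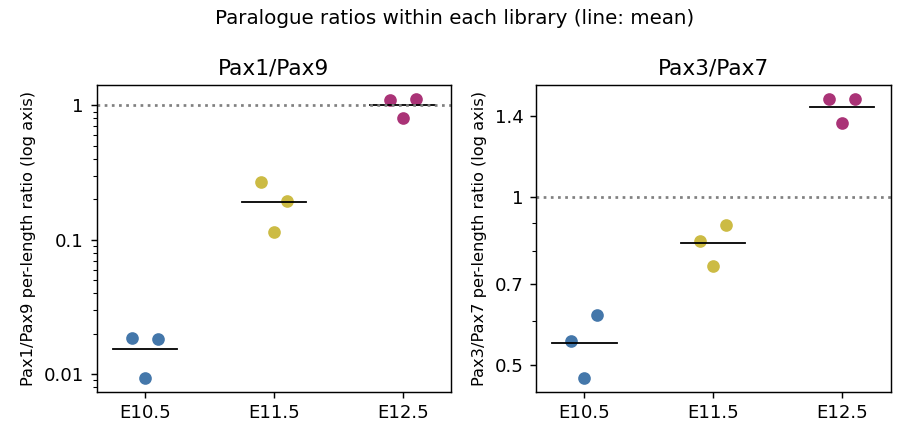
Ratio of the levels per kb (log axis) of Pax1 to Pax9 (left) and of Pax3 to Pax7 (right) in each library by stage. Points are libraries, solid lines are means, and the dotted line marks equal levels; the Pax1/Pax9 mean reached 1.01 and the Pax3/Pax7 mean 1.45 at E12.5.

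RefSeq promoters (GRCm38.p6, from 250 bases before to 50 bases after the annotated start) were matched for 7 of the 9 members. Those of Pax1 (chr2:147364744-147365043, plus strand) and Pax9 (chr12:56695221-56695520, plus strand) are shown because these relatives with the same stretch of paired-box residues followed different courses. Both windows lie inside the loci given above, downstream of the GENCODE gene starts at chr2:147361925 and chr12:56691767. They therefore do not cover the most upstream annotated start of either gene. Capitals mark matches to 5 motifs: the CCAAT box, the GC box GGGCGG, the TATA box TATAAA, the Gli-type motif GACCACCCA and the homeodomain motif TAATTA, each searched on both strands.
Pax1: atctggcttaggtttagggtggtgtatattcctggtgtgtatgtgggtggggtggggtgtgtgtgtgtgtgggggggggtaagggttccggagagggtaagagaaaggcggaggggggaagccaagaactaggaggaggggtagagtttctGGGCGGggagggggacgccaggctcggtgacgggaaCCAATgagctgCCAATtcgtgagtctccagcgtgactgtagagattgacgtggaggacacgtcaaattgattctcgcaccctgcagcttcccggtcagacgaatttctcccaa
Pax9: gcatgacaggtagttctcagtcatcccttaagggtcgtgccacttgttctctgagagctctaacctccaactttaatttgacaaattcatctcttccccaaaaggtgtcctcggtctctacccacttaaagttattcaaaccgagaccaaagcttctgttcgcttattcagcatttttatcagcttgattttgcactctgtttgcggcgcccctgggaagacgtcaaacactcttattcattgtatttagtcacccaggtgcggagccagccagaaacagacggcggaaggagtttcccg
The Pax1 window held GGGCGG, found in 35.7% of 32851 promoters of this length, and CCAAT, found in 37.4%. The Pax9 window held none of the 5 motifs. GC content was 57.3% for Pax1 and 47% for Pax9, beside a median of 52.7% over all promoters, and the windows held 13 and 11 CG dinucleotides, beside a median of 7. A match to these letters is a description of the sequence.

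Pax3 and Pax7, which act at the neural plate border and in cranial neural crest, followed different courses. Pax3 was at 42.9, 36.2 and 25.8 CPM in the E10.5 libraries, 102, 82.3 and 93.4 in the E11.5 libraries and 108, 117 and 97.1 in those of E12.5. It rose between E10.5 and E11.5, with a log2 fold change of 1.41 (SE 0.186, adjusted p = 0.00385). E12.5 vs. E11.5 gave 0.21 (SE 0.128, adjusted p = 0.31), and the libraries of these stages overlapped.

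Pax7 was at 73.5, 72.2 and 39.7 CPM in the E10.5 libraries, 116, 103 and 99.1 in the E11.5 libraries and 68.0, 81.5 and 61.4 in those of E12.5. All E11.5 libraries were above those of both other stages. Neither step made Pax7 a DEG: E11.5 vs. E10.5 gave a log2 fold change of 0.78 (SE 0.220, adjusted p = 0.0564), and E12.5 vs. E11.5 gave -0.60 (SE 0.136, adjusted p = 0.0174), which passed the adjusted p but not the fold threshold. E12.5 and E10.5 libraries overlapped (log2 fold change 0.20, SE 0.239, adjusted p = 0.595). Without E10.5 replicate 3, in which Pax7 was 0.545 times the mean of the other E10.5 libraries, this value was -0.04, and the adjusted p for E11.5 vs. E10.5 was 1.64e-04 at a log2 fold change of 0.55.

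The ratio of Pax3 to Pax7 per length was 0.553, 0.475 and 0.615 in the E10.5 libraries, 0.835, 0.754 and 0.893 in the E11.5 libraries and 1.5, 1.36 and 1.5 in those of E12.5. Pax7 was the higher of the pair in all libraries of E10.5 and E11.5, and Pax3 in all libraries of E12.5.

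Pax6, a regulator of eye, forebrain and nasal placode development, fell. It was at 31.5, 23.5 and 42.6 CPM in the E10.5 libraries, 10.4, 14.4 and 10.5 in the E11.5 libraries and 6.59, 7.44 and 6.98 in those of E12.5. The libraries of the 3 stages did not overlap. The log2 fold change was -1.46 (SE 0.241, adjusted p = 0.00882) for E11.5 vs. E10.5, -0.75 (SE 0.182, adjusted p = 0.0227) for E12.5 vs. E11.5, which was under the fold threshold, and -2.21 (SE 0.247, adjusted p = 1.11e-04) over both. The first of these was no longer a DEG without E11.5 replicate 1 (-1.38, adjusted p = 0.0656) or without E11.5 replicate 3 (-1.38, adjusted p = 0.0571).

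Pax2, which acts in optic stalk, kidney and midbrain-hindbrain development, was found at E10.5 and was almost absent afterwards. Its counts were 297, 176 and 200 in the E10.5 libraries, 3, 2 and 12 in the E11.5 libraries and 6, 4 and 1 in those of E12.5. All E10.5 libraries were above all later ones. The log2 fold change was -5.48 (SE 0.503, adjusted p = 0.0013) for E11.5 vs. E10.5 and -5.96 (SE 0.446, adjusted p = 7.92e-06) for E12.5 vs. E10.5. Without E11.5 replicate 3, which held 12 counts, the first of these was -6.64. The E12.5 and E11.5 libraries overlapped and were too low to be tested.

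Pax5, a relative of Pax2 known for B cell identity and midbrain development, had 42, 15 and 24 counts in the E10.5 libraries, 1, 0 and 1 in the E11.5 libraries, and 0 in each E12.5 library. It was a DEG for E11.5 vs. E10.5 (adjusted p = 0.0051) and for E12.5 vs. E10.5 (adjusted p = 9.61e-04). With 81 counts over the E10.5 libraries and 2 over the E11.5 libraries, the level at E10.5 was 47.1 times that at E11.5 (exact 95% interval 12.6 to 395). It was at least 28.5-fold higher at E10.5 than at E12.5, with 3 counts over the 3 libraries taken as the limit of detection. Both figures cover counting error only, and the reads carry no molecular identifiers.

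Pax8 and Pax4 were not detectable beyond a few reads. Pax8, known from thyroid and kidney, had 0, 2 and 1 counts at E10.5 and 0 in the other 6 libraries. Pax4, an islet factor, had 1 count in 1 E10.5 library and 1 in 1 E11.5 library, and 0 in the other 7. A limit of 3 counts per stage corresponds to 0.0514 to 0.0598 CPM, and no fold change was computed.

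**Figure D3:**
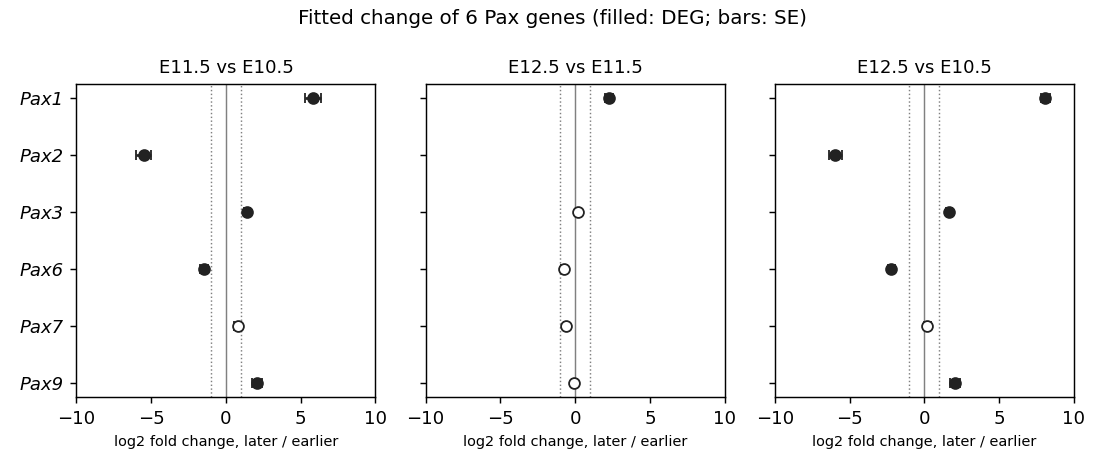
Log2 fold change (horizontal axis, later over earlier stage) with its SE for the 6 Pax genes other than Pax4, Pax5 and Pax8, in the 3 comparisons. Filled points are DEGs, dotted lines mark a log2 fold change of 1 in either direction, and Pax2 has no point for E12.5 vs. E11.5; Pax1 was the 1 member that was a DEG in all 3.

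The order of the members by level per length changed with stage. At E10.5, Pax7 led with 10.5 ± 3.27 CPM per kb, followed by Pax3 (5.65 ± 1.396), Pax9 (5.17 ± 2.54), Pax6 (2.78 ± 0.820) and Pax2 (2.48 ± 0.706), and each neighbouring pair in this order overlapped between libraries. Pax5 and Pax1 came next, at 0.183 ± 0.0927 and 0.0750 ± 0.0399. Compared within each E10.5 library, Pax7 was above Pax3. At E11.5, Pax9 (21.9 ± 2.32) and Pax7 (18.1 ± 1.49) overlapped at the top, above Pax3 (15.0 ± 1.61) and Pax1 (4.32 ± 2.10). Compared within each E11.5 library, Pax9 was above Pax7. At E12.5, Pax9 (21.1 ± 3.90) and Pax1 (20.81 ± 1.97) overlapped at the top, and Pax3 (17.3 ± 1.59), Pax7 (12 ± 1.75) and Pax6 (0.599 ± 0.0363) followed (SD, n = 3).

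Summed over the family, the level went from 26.9 ± 6.72 CPM per kb in the E10.5 libraries through 60.4 ± 6.86 in those of E11.5 to 71.8 ± 7.75 in those of E12.5 (SD, n = 3). Pax3 made up 21.0 ± 0.859%, 24.8 ± 0.324% and 24.1 ± 0.566% of this sum, in order of stage. Pax7 went from 38.7 ± 3.601% to 30.1 ± 2.44% and 16.7 ± 0.977%, and Pax1 from 0.268 ± 0.0878% to 6.95 ± 2.71% and 29.1 ± 3.13%. Pax6 and Pax2 made up 11.4 ± 6.50% and 9.48 ± 2.74% at E10.5, and Pax6 was at 0.839 ± 0.0914% at E12.5.

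**Figure D4:**
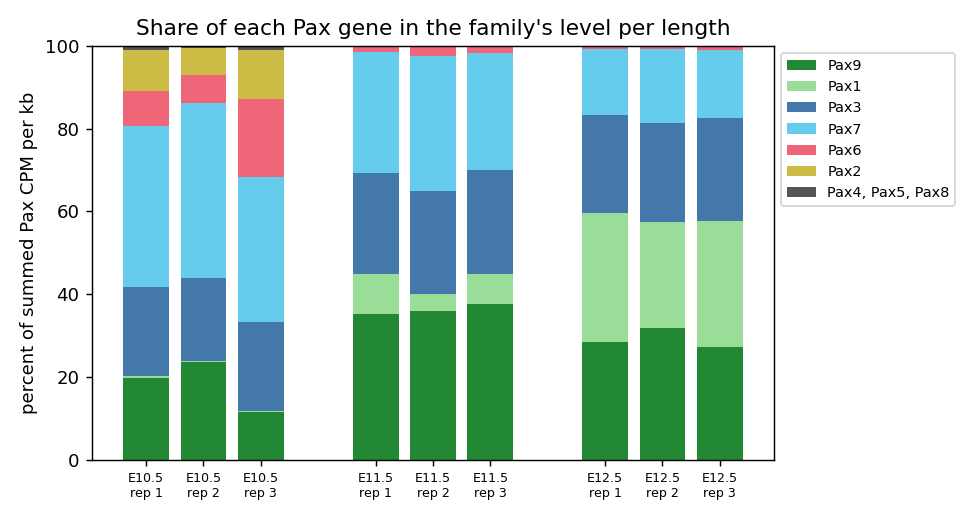
Percent of the family's summed CPM per kb (vertical axis) taken by each Pax gene in each library (horizontal axis, grouped by stage). Pax6 took 18.8% in E10.5 replicate 3, against 8.36 and 6.88% in the other E10.5 libraries, and Pax1 took 25.5 to 31.3% at E12.5.

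Whether a member changed differently in the 2 intervals was tested on all 9 libraries, as the log2 fold change of E12.5 vs. E11.5 minus that of E11.5 vs. E10.5. Pax1 passed, with a difference of -3.54 (SE 0.637, adjusted p = 0.0238), and 1.18% of 16375 genes did. The call was lost without E11.5 replicate 1 (-2.75, adjusted p = 0.125), E11.5 replicate 3 (-3.51, adjusted p = 0.099), E12.5 replicate 1 (-3.62, adjusted p = 0.0685) or E12.5 replicate 3 (-3.49, adjusted p = 0.0608). Pax9 gave -2.14 (adjusted p = 0.0689), Pax7 -1.37 (adjusted p = 0.093), Pax3 -1.19 (adjusted p = 0.0858), Pax2 5.0 (adjusted p = 0.0617) and Pax6 0.72 (adjusted p = 0.509). Without E10.5 replicate 3, Pax9 (adjusted p = 0.00327), Pax7 (0.0163) and Pax3 (0.0253) passed. Pax3 also passed without E10.5 replicate 1 (0.0438), Pax9 without E10.5 replicate 2 (0.0486) and Pax2 without E11.5 replicate 3 (0.0378).

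Lists of genes known to act beside the Pax genes were read from the same fits. The forebrain list, 12 genes that mark the tissue in which Pax6 acts early, had 8 downregulated DEGs of 11 tested for E11.5 vs. E10.5. Of all genes tested, 2.61% were downregulated DEGs. Of the 8, Sox1, Rax, Eomes and Tbr1 passed the filter on low counts through their E10.5 libraries. The count of the list is thus in part set by the filter. The median log2 fold change of the list was -2.12, beside -0.03 over all genes. Sox1, a neural progenitor factor, fell from 48.8 ± 10.2 to 0.632 ± 0.478 CPM (SD, n = 3; log2 fold change -6.22), and Vax1, of the ventral forebrain and optic stalk, from 19.5 ± 5.32 to 2.36 ± 0.320 CPM (-3.04). The summed level of the list was 300 to 432 CPM in E10.5 libraries, 117 to 128 in E11.5 libraries and 144 to 182 in E12.5 libraries. Like Pax6, it was highest in E10.5 replicate 3. Emx2, a dorsal forebrain factor of the list named after its values were seen, was at 12.5 ± 1.4 CPM in the E10.5 libraries, 16.97 ± 3.62 in the E11.5 libraries and 51.9 ± 11.9 in those of E12.5, an upregulated DEG for E12.5 vs. E11.5 (log2 fold change 1.61). None of its genes was at 0 in all libraries of a stage. The part of neural tissue in the dissection in the falls of Pax6, Pax2 and Pax5 was not tested.

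The eye and lens list had 6 downregulated DEGs of 9 tested for E11.5 vs. E10.5 (median -1.31), beside 2.61% of all genes. Among them was Six6, at 19.3 ± 8.53, 1.90 ± 0.394 and 1.33 ± 0.415 CPM. Vax2, an optic factor, was at 1.88 ± 1.02 CPM at E10.5 and had no count in the E12.5 libraries. Vax2 and Foxe3 were among the 6 and passed the filter on low counts through their E10.5 libraries. The olfactory placode list, the other tissue of Pax6 in this region, had a median log2 fold change of 0.07 over 10 tested genes. Its summed level was 341 to 395 CPM at E10.5 and 426 to 440 at E11.5.

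The palate and tooth list, genes that act with Pax9 in those organs, had 6 upregulated DEGs of 14 tested for E11.5 vs. E10.5 (median 0.87) and 9 of 14 for E12.5 vs. E10.5 (median 1.45, beside -0.01 over all genes). Of all genes, 3.46% and 9.97% were upregulated DEGs in these comparisons. Osr2, a palate regulator, was at 2.36 ± 0.834, 16.3 ± 3.41 and 56.9 ± 8.88 CPM, and Inhba, a TGF-beta family ligand needed for teeth, at 0.911 ± 0.253, 19.0 ± 8.09 and 33.9 ± 5.16 CPM. The sclerotome and cartilage list had 2 upregulated DEGs of 9 tested for E12.5 vs. E10.5 (median 0.44), beside 9.97% of all genes. They were Acan, a cartilage matrix proteoglycan, and Tbx18, a somite factor. Col2a1, the cartilage collagen, was at 688 ± 203 CPM at E10.5 and 377 ± 64.4 at E12.5 (log2 fold change -0.86, adjusted p = 0.0253).

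The border and crest list had 3 upregulated and 1 downregulated DEGs of 9 tested for E12.5 vs. E10.5 (median 0.70). In this comparison 9.97% of all genes were upregulated and 5.08% downregulated DEGs. Sox10 and Foxd3, factors of migrating crest and glia, rose with log2 fold changes of 2.40 and 2.26, and Snai2, a regulator of crest migration, rose by 1.99. Zic1, a border and neural factor, went from 49.95 ± 10.7 to 1.44 ± 1.14 CPM. Of the head muscle list 2 of 5 tested genes were upregulated, Dmrt2 and Fgfr4. Fgfr4 lost the call in 4 of 6 fits with a library left out. Myod1, the myogenic factor, was too low to be tested, at 0.0593 ± 0.0581 CPM at E10.5 and 0.358 ± 0.0197 at E12.5. Among the other untested genes of this list, mean CPM was higher at E12.5 for Myog and Lbx1 and lower for Myf5, Msc, Tcf21 and Myf6. Of the melanocyte list 2 of 5 were downregulated, Kit and Mitf (list median -0.98). Mitf lost the call in 5 of 6 fits with a library left out. Ednrb of this list went the other way, with a log2 fold change of 0.96, under the fold threshold. For E12.5 vs. E11.5 the melanocyte list had 1 upregulated and 0 downregulated DEGs of 5 tested.

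**Figure D5:**
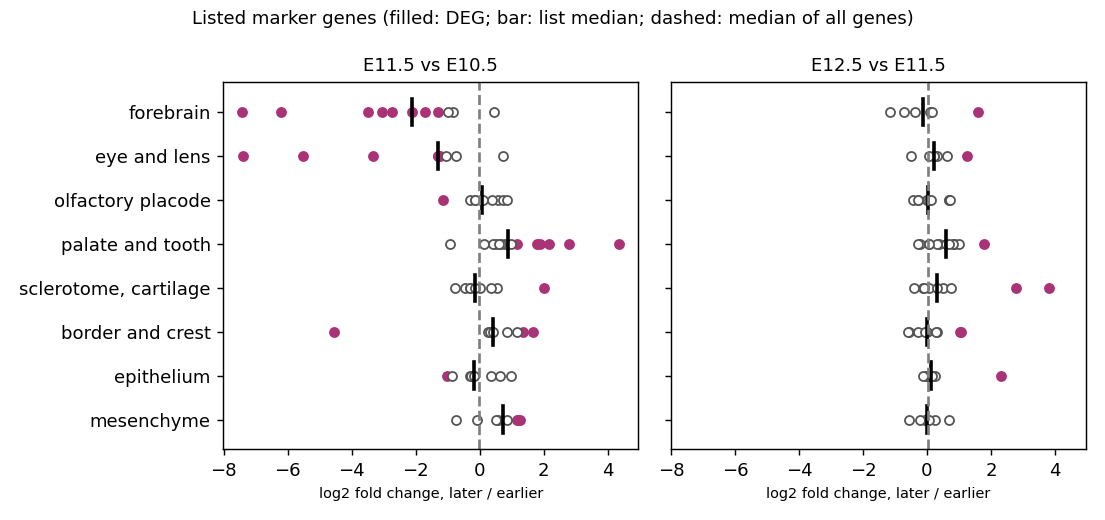
Log2 fold change (horizontal axis, later over earlier stage) of the tested genes of 8 lists for E11.5 vs. E10.5 (left) and E12.5 vs. E11.5 (right). Filled points are DEGs, black bars list medians, and the dashed line the median of all genes. The forebrain median was -2.12 over 11 tested genes on the left and -0.14 over 6 on the right. These medians cover different sets of genes.

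For the relatives of Pax2, the midbrain-hindbrain list had 1 upregulated and 1 downregulated DEG of 4 tested for E12.5 vs. E10.5 (median -0.74). The shares over all genes in this comparison were 9.97% upregulated and 5.08% downregulated. Fgf8, the signal of that boundary and of the facial ectoderm, was at 38.3 ± 5.77, 15.7 ± 2.47 and 5.40 ± 1.08 CPM, and En1, a midbrain and limb ectoderm factor, at 0.276 ± 0.239, 0.805 ± 0.458 and 11.2 ± 4.12 CPM. The kidney and ear list had 1 upregulated, Osr1, and 1 downregulated DEG, Sall1, of 5 tested (median 0.19). The thyroid list had 2 downregulated DEGs of 4 (median -1.18), Nkx2-1 and Foxe1. The B cell list had 2 upregulated DEGs of 3 (median 1.48), Blnk and Ebf1.

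Partners of Pax proteins were read in the same way, beside 15% of all genes called for E12.5 vs. E10.5. Of 13 tested cofactors, which include the Groucho-related corepressors and Paxip1, 2 were upregulated DEGs, Tle2 and Tle6 (list median -0.19). With a library left out, Tle2 lost the call in 4 of 6 fits and Tle6 in 1. Of 10 tested genes of the sine oculis homeobox, Eya and Dach families, 1 was upregulated, Eya4, and 2 downregulated, Dach1 and Dach2 (median -0.19). Among the tissue lists, mesenchyme had 3 upregulated and 1 downregulated DEGs of 8 for E12.5 vs. E10.5 (median 0.72), epithelium 1 and 1 of 9 (median -0.14), blood 4 and 1 of 8 (median 0.92), and the endothelial median was 0.08 over 6 genes.

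The nearest tested protein-coding genes on both sides of the 7 tested members numbered 14. For E11.5 vs. E10.5, 3 of them were DEGs, all downregulated, beside 6.07% of all genes called and 2.61% downregulated. They were Nkx2-2 beside Pax1, Nkx2-1 beside Pax9 and Klhdc7a beside Pax7. Nkx2-2 and Nkx2-1 passed the filter on low counts through their E10.5 libraries. This count and its direction are thus in part set by the filter. Nkx2-1, a forebrain, lung and thyroid factor 155 kb from Pax9, was at 44.4 ± 13.3, 0.908 ± 1.27 and 0.319 ± 0.553 CPM (SD, n = 3), and so fell while Pax9 rose. Elp4, an Elongator subunit 3.66 kb from Pax6, was at 34.5 ± 5.57, 36.7 ± 0.813 and 30.8 ± 2.35 CPM, with log2 fold changes of 0.09 and -0.26 that did not pass the test (adjusted p = 0.701 and 0.191).

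The protein-coding genes whose log2 CPM followed each member most closely over the 9 libraries were found by Pearson's r, as a description, since the libraries share their stages. For Pax1 they were Pgm5 (r = 0.998), Prss12 (r = 0.997) and Tmem26 (r = 0.997). For Pax3 they were Runx2, the bone master regulator (r = 0.997), Cdh11 (r = 0.996) and Myof (r = 0.995), and for Pax9 Clmp (r = 0.997), Zcchc24 (r = 0.992) and Daam2 (r = 0.991). For Pax7 they were Epha7 (r = 0.987), Gata3 (r = 0.981) and Tril (r = 0.979). For Pax6 they were Hace1 (r = 0.987), C330021F23Rik (r = 0.985) and Nr2e1, a forebrain progenitor receptor (r = 0.983). For Pax2 they included Lhx4 and Nkx6-2 (r = 0.986 and 0.981), and for Pax5 they were Vax2, Zbtb42 and Cybb (r = 0.991, 0.990 and 0.986).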

How the data were processed

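Total RNA of pooled lambdoidal junction tissue was sequenced in 9 libraries. The authors mapped the reads with HISAT2 2.0.5 to mm10 and counted them per gene with featureCounts. The authors deposited whole-number counts, not normalized, and FPKM, whose divisors follow the median-of-ratios size factors. Their columns of group means, log2 fold changes and p-values were not used. Whether counting used strand or multiply mapped reads is not given in the sources used here. Coordinates are those of the table and were checked against GENCODE vM21, where 54409 of 54532 identifiers were found. Transcript sequences come from GENCODE vM21, promoters from RefSeq (GRCm38.p6).

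Counts were fitted in R 4.3.3 with edgeR 4.0.16 (filterByExpr, TMM, quasi-likelihood test), each pair of stages on its own 6 libraries, and the interval difference and the 3-stage test on 9. The fits were tested on simulated data. DESeq2 1.42.0, other filters, scalings and thresholds, GC and length trends, the replicate number as a block and each library left out were the alternatives. Tables used Python 3.11.15, numpy 2.4.6, pandas 2.3.3 and scipy 1.17.1. The paralogue ratios were added after values had been seen and are given with no test. Total counts were 16581009 to 20836804 per library, and intervals cover counting error only.

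The members and the 19 gene lists were chosen with earlier results of these data known. Genes named are the 9 members, up to 4 DEGs per list with the largest change for E12.5 vs. E10.5, the flanking genes, the 3 genes most like each member, defining markers and genes that overlap a member. The results of some of these genes are left out.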

Additional observations from a re-analysis of the deposited data

Results flagged for a closer look

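For Pax1 the test of the difference between the intervals passed the threshold on all 9 libraries. The log2 fold change was 5.81 in the first interval and 2.27 in the second in the fit of all 9 libraries, a difference of -3.54 (SE 0.637, adjusted p = 0.0238 in edgeR's quasi-likelihood test). The call was lost without E11.5 replicate 1 (adjusted p = 0.125), E11.5 replicate 3 (0.099), E12.5 replicate 1 (0.0685) or E12.5 replicate 3 (0.0608). The counts at E10.5 were 9, 5 and 3, and Pax1 passed the filter on low counts through its later libraries.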

How the results depend on the processing

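Over the alternatives, 309 log2 fold changes of Pax genes kept their direction and their DEG call or its absence, 6 lost the call and 2 changed sign: with a library left out, Pax9 for E12.5 vs. E11.5 was -0.21 to 0.0546 (the latter without E12.5 replicate 3), and Pax7 for E12.5 vs. E10.5 was -0.0383 to 0.32 (the former without E10.5 replicate 3). On the adjusted p alone, Pax7 for E11.5 vs. E10.5 passed 0.05 under 6 alternatives (1.64e-04 to 0.0338), and for E12.5 vs. E11.5 Pax7 missed it under 5 (0.0600 to 1) and Pax6 under 4 (0.0682 to 1). Among other named genes, the value for E12.5 vs. E10.5 changed sign for Zcchc7 (-0.37 to 0.0345) without E12.5 replicate 2 (0.00637) or replicate 3, and for Gata3 (-0.0209 to 0.33) without E10.5 replicate 3. Over the alternatives, 54 values of these other genes lost the DEG call and 12 gained it. With a library left out, the call was lost in 5 of 6 fits for Mitf and in 4 of 6 each for Tle2 and Fgfr4. Pax DEGs went from 6 to 3 in both comparisons against E10.5 under a filter of 10 counts per library, which leaves Pax1, Pax2 and Pax5 untested, and to 3 for E11.5 vs. E10.5 with glmTreat. Leaving out a library gave 4 to 6 Pax DEGs for E11.5 vs. E10.5, with 4 without E11.5 replicate 1.

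DEGs over all genes numbered 954 and 806 in the first and second interval and 2392 over both, against 213, 144 and 933 with glmTreat and, for the first 2, 462 and 498 at an adjusted p of at most 0.01. Leaving out a library gave 395 to 1592 and 502 to 1181 for these 2; the first was 1592 when E10.5 replicate 3 was left out, 395 for E11.5 replicate 1 and 453 for E11.5 replicate 3, and the second was 502 for E11.5 replicate 2 and 512 for E12.5 replicate 1.

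The interval difference passed the threshold under DESeq2 for Pax2 (5.0), Pax3 (-1.20), Pax7 (-1.38) and Pax9 (-2.15), and with all genes of at least 1 count (4.96, -1.23, -1.41 and -2.17). It also passed for Pax7 with the GC trend removed (-1.47). Leaving out a library gave -4.17 to -2.75 for Pax1, 4.13 to 7.32 for Pax2, -1.37 to -1.04 for Pax3, -1.52 to -1.18 for Pax7 and -2.39 to -1.83 for Pax9. The cause was not tested.

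Libraries of the same replicate number share only a number: the correlations of their deviations from the stage means were -0.15 to 0.22. With the replicate block, DEGs were 875, 887 and 2474 and Pax DEGs 6, 1 and 6, while the interval differences of Pax7 (-1.43, adjusted p = 0.0406) and Pax9 (-2.29, adjusted p = 0.0312) passed. The authors' FPKM in place of CPM per kb moved each of 23 stage means by less than 1 SD. Depth limits Pax4, Pax5 and Pax8.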

Other observations

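Among the genes of the islet list, named for the tissue of Pax4, Nkx6-1 and Nkx2-2 were downregulated DEGs for E11.5 vs. E10.5 in edgeR's quasi-likelihood test. Nkx6-1 was at 2.47 ± 1.20 and 0.0176 ± 0.0304 CPM and Nkx2-2 at 1.66 ± 0.490 and 0.0321 ± 0.0555 CPM (SD, n = 3). Both passed the filter on low counts through their E10.5 libraries, and both are transcription factors that are also known from the neural tube. The defining islet genes Pdx1 and Ins1 had no count in any library.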
